A study of Homo sapiens with 12 samples.

Results

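Polymerase II phosphorylated at serine 2 was compared with polymerase II as a whole along the transcribed units of K562, a cell line established long ago from a human chronic myeloid leukaemia. The comparison rests on 4 of the 12 libraries of the study, all chromatin immunoprecipitations (ChIP) from untreated cells: 2 made with the antibody 3E10 against the serine 2 phosphorylated polymerase (S2P) and 2 made with the antibody N-20 against the polymerase (N20). Both antibodies were used on chromatin from cells crosslinked for 7.5 min with 1% formaldehyde, with 75 µL of 3E10 or 1.5 µg of N-20 on 1.5 mg of beads. No input or mock library was used here, so the background of each library was taken from its own counts far from any unit. The other libraries of the study are RNA, and of these only TT-Seq, a measure of newly made RNA, was used, to rank units. Of the 21874 units that the study's authors segmented from TT-Seq, 21872 were used: 7810 mRNA units, 3546 antisense RNAs (asRNA), 3257 enhancer RNAs (eRNA), 2654 unclassified units, 2579 short intergenic RNAs (sincRNA), 778 convergent RNAs (conRNA), 685 upstream antisense RNAs (uaRNA), 302 long intergenic RNAs (lincRNA) and 261 of other annotated classes. Every unit had a start window of 1 kb on each side of its 5' end, 14846 had a body window, 10594 units of 10 kb or more had a window over their last 5 kb, and 10026 with no neighbour downstream had windows reaching 20 kb after their 3' end. The body began 1 kb after the start. It stopped 5 kb before the 3' end in units of 10 kb or more and ran to the 3' end in units of 3 to 10 kb.

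The largest subunit of RNA polymerase II carries a long C-terminal tail of repeated heptapeptides whose serines are phosphorylated and dephosphorylated in each round of transcription. Serine 5 is phosphorylated near the promoter, chiefly by the kinase CDK7, while serine 2 phosphorylation is laid down by CDK9 and CDK12 as the polymerase leaves its pause near the promoter and elongates. The serine 2 mark is bound by factors of cleavage, polyadenylation and termination such as PCF11. N-20 was raised against the amino end of the same subunit and reads the polymerase whatever its phosphorylation. S2P set against N20 is thus a relative measure of the mark against the polymerase. Differences between the antibodies in background and enrichment also enter it, so it is not an amount of mark per polymerase.

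The libraries held 73.7 and 34.5 M counts in S2P, against 12.6 and 23.3 M counts in N20, and units covered 61.2% and 65.4% of the S2P counts and 43.5% and 44.4% of the N20 counts. All counts were even in every bin, so these totals stand for 36.8 and 17.2 M independent fragments in S2P and 6.30 and 11.7 M in N20 if each was entered in pairs. Densities are given as fold over the library's own background, the mean count of bins more than 20 kb from any unit. The S2P libraries differed from each other at starts: library 2 was a median 1.90-fold above library 1 there, against 1.07-fold for N20 library 2 over N20 library 1, while in bodies the same medians were 1.09 for S2P and 1.05 for N20. Nothing in the labels says whether the 2 libraries of an antibody came from separate cultures, so the p-values measure the spread between these libraries, which may be technical. With 2 against 2, an exact permutation test over libraries (two-sided) cannot give a p below 0.33, so single values over libraries are given without one, and units were tested with edgeR's quasi-likelihood test (Benjamini-Hochberg adjusted p under 0.05 over all windows or units tested).

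Relative to N20, S2P was higher in bodies and near the ends of units than at their starts. In mRNA units the median start density was 11.9 and 22.7 in S2P, against 17.3 and 19.8 in N20, and here the antibodies overlapped. In bodies the median was 4.86 and 5.10 in S2P, against 2.19 and 2.39 in N20. In the last 5 kb it was 5.88 and 5.61 in S2P, against 2.16 and 2.40 in N20. Both S2P libraries thus lay above both N20 libraries in bodies and last windows. In a bulk population, fewer cells with polymerase at a site and less polymerase per cell cannot be told apart. The share of mRNA units whose densest window was the start was 67.02% and 75.8% in S2P, against 88.1% and 89.9% in N20, over the 3526 units that had all windows. The last 5 kb was the densest window in 20.3% and 14.5% of units in S2P, against 4.59% and 3.04% in N20.

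Because each library serves as its own scale, the change of density between 2 windows of the same unit needs no scaling between antibodies. From start to body, the median density of mRNA units fell to 0.459 and 0.254 of the start in S2P, against 0.140 and 0.133 in N20. As log2 ratios these are -1.55 ± 0.60 in S2P and -2.87 ± 0.05 in N20 (SD, n = 2 each), a difference of 1.32. From start to last 5 kb the log2 ratio was -1.19 ± 0.65 in S2P and -2.71 ± 0.10 in N20 (SD, n = 2 each), a difference of 1.52, and of 2.15 after subtraction of background. Leaving out S2P library 1 lowered the last 5 kb difference to 1.06, and leaving out S2P library 2 gave 1.98; it was 1.45 and 1.59 without either N20 library.

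Across all units, S2P over N20 changed between start and body in 5305 of 13881 units, or 38.2%, with 4985 higher and 320 lower in the body and a median log2 change of 1.03. In mRNA units 3338 of 7506 were higher in the body and 52 lower, with a median of 1.25. Between start and last 5 kb, 3829 of 9524 units changed, or 40.2%, 3682 higher and 147 lower, with a median of 1.28; among mRNA units 3009 of 6641 were higher and 57 lower, with a median of 1.52. The number of calls rested on both N20 libraries: without N20 library 1 or 2, 331 and 240 units remained past the threshold between start and body and 1164 and 847 between start and last 5 kb, with the lone N20 library assumed to vary like the S2P libraries, while the medians over all units were 1.06 and 0.98 for bodies and 1.31 and 1.24 for the last 5 kb. The medians moved with the S2P libraries instead: they were 0.68 for bodies and 0.84 for the last 5 kb without S2P library 1, and 1.403 and 1.68 without S2P library 2. Without S2P library 2, the body count was 9124. In isolated units, which have no other unit within 1 kb, the medians were smaller: 0.81 for mRNA bodies, with 190 of 1102 units higher and 4 lower, and 0.98 for the last 5 kb, with 209 of 922 higher and 8 lower.

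The profile around starts showed where the antibodies part. Averaged over 7157 mRNA units of 10 kb or more, N20 was highest in the 200 bp bin at the start itself, at 45.4 and 52.1, while S2P was highest one bin further in, at 20.4 and 43.7. S2P over N20 was lowest at the start, at 0.611, and reached 1.29 at 1 kb, 1.69 at 2 kb, 2.65 at 5 kb and 3.603 at 9.4 kb. At 2 kb S2P stood at 6.99 and 11.1, against 5.10 and 5.64 for N20, and at 9.4 kb S2P stood at 11.3 and 12.4, against 3.23 and 3.37 for N20. In these means the S2P lines thus climbed again between 2 and 9.4 kb while the N20 lines did not. Units of 10.0 to 25.7 kb were dense near their ends, with a median of 12.3 and 12.7 in S2P over the last 5 kb. The bins towards 10 kb reach such ends in the shortest units. A few dense units also weigh on a mean: over mRNA bodies S2P had means of 11.9 and 14.3, above medians of 4.86 and 5.10. The part of either in the climb was not tested.

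**Figure D1:**
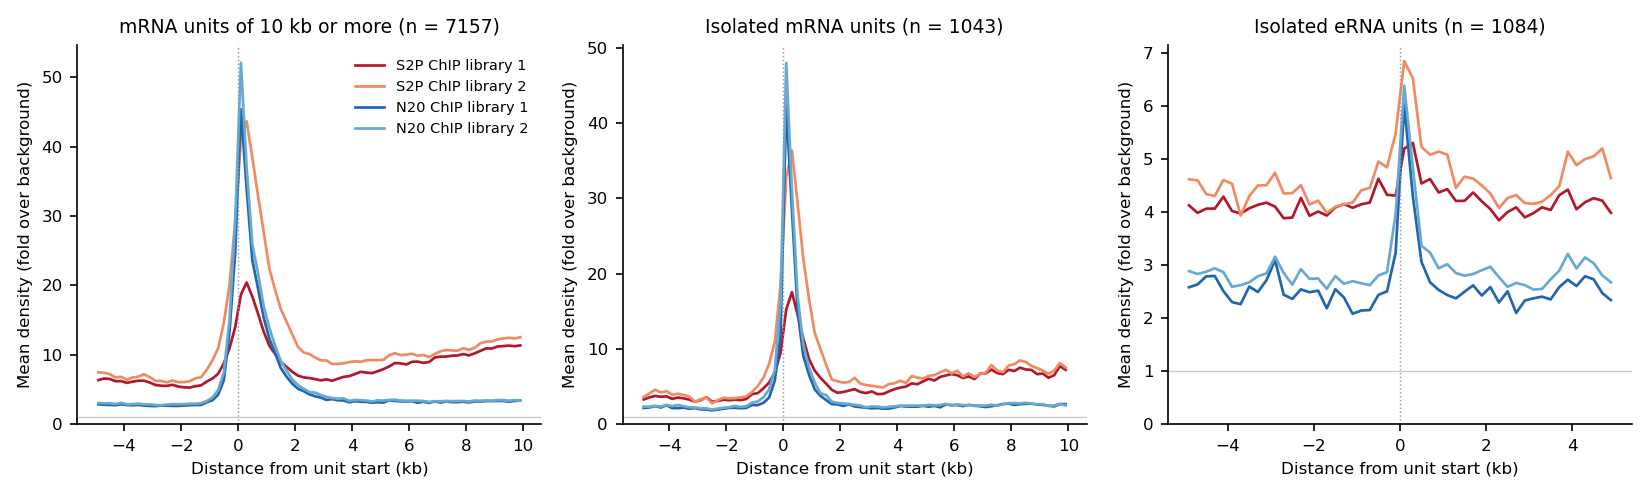
Mean density (fold over background, 200 bp bins) against distance from the unit start in kb, for mRNA units of 10 kb or more, isolated mRNA units of 10 kb or more and isolated eRNA units, with 1 line per ChIP library. N20 peaks at the start in mRNA units, at 45.4 and 52.1, S2P peaks 0.2 kb further in, at 20.4 and 43.7, and only the S2P lines climb again towards 10 kb.

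In enhancer RNA units the density changed less along the unit. Enhancer RNAs are short, unstable, mostly unspliced transcripts made at active enhancers. Their median start density was 3.70 and 3.32 in S2P, against 2.16 and 2.81 in N20, so on this scale S2P lay above N20 already at the start. Around 1084 isolated eRNA starts S2P peaked at 5.31 and 6.85 and N20 at 6.03 and 6.39. At 4 kb upstream S2P stood at 4.02 and 4.54, against 2.303 and 2.59 for N20, so the S2P peak stood less far above the density around it than the N20 peak did. S2P over N20 was 0.97 in the start bin and 1.75 at 4 kb upstream; the same values at 1043 isolated mRNA starts were 0.531 and 1.62. Within eRNA units long enough for a body, the log2 of body over start was -0.06 and -0.05 in S2P, against -0.34 and -0.33 in N20. S2P over N20 was higher in the body in 59 of 519 eRNA units and lower in 27 (median 0.26). Without N20 library 1 or 2 these counts were 5 and 2 higher and 3 and 6 lower, and the medians 0.32 and 0.18. The difference between the classes was not tested, since units within a library are not replicates.

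Between start and body, over all units and libraries, the medians of the remaining classes lay between those of mRNA and eRNA units. This order did not hold throughout. Over the last 5 kb against the start, long intergenic (0.48) and short intergenic RNAs (0.39) lay below eRNA units (0.52). Among isolated units, short intergenic (0.21) and convergent RNAs (0.23) lay below eRNA units (0.35) in the body. Without S2P library 1, upstream antisense (0.2702) and short intergenic RNAs (0.2855) did so too (eRNA 0.2887). The median log2 change of S2P over N20 between start and body was 1.12 in other annotated units, with 78 of 211 higher and 4 lower. It was 1.06 in unclassified units, with 684 of 1805 higher and 63 lower. Long intergenic RNAs had a median of 0.79, with 38 of 240 higher and 2 lower. Convergent RNAs had 0.68, with 85 of 338 higher and 18 lower. Antisense RNAs had 0.65, with 440 of 1913 higher and 107 lower, and upstream antisense RNAs, the products of divergent promoters, had 0.63, with 69 of 304 higher and 16 lower. Short intergenic RNAs had 0.57, with 194 of 1045 higher and 31 lower. Leaving out N20 library 1 or 2 cut the higher calls to 24 and 22 in antisense RNAs, 56 and 43 in unclassified units, 9 and 9 in convergent RNAs, and at most 7 in each of the other classes of this paragraph. Leaving out S2P library 2 gave 905 higher calls in antisense RNAs, 1073 in unclassified units, 427 in short intergenic RNAs, 149 in convergent RNAs, 135 in upstream antisense RNAs, 135 in other annotated units and 125 in long intergenic RNAs. Without S2P library 1 the medians fell to 0.31 in antisense, 0.27 in upstream antisense, 0.29 in short intergenic, 0.36 in convergent and 0.53 in long intergenic RNAs, and to 0.73 in unclassified and 0.76 in other annotated units. The ChIP counts carry no strand, so the start window of an antisense or upstream antisense unit also holds polymerase of the gene beside it.

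**Figure D2:**
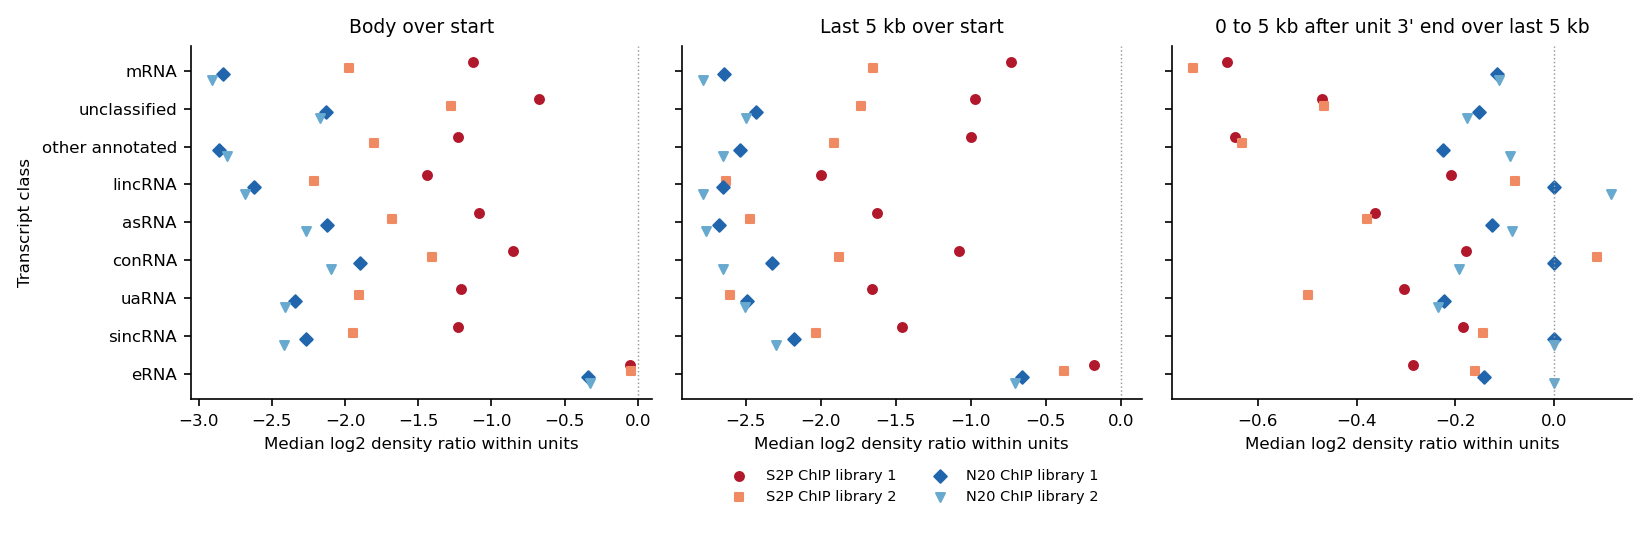
Median log2 density ratio within units, by transcript class, for body over start, last 5 kb over start, and the 5 kb after the unit's 3' end over the last 5 kb, with 1 marker per ChIP library. In mRNA units S2P falls less than N20 from start to body (-1.12 and -1.97 in S2P, -2.83 and -2.91 in N20) and falls more than N20 after the unit's end (-0.66 and -0.73 in S2P, -0.12 and -0.11 in N20), while in eRNA units body over start is -0.06 and -0.05 in S2P, against -0.34 and -0.33 in N20.

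The genes with the largest gain of S2P over N20 between start and last 5 kb were picked for that gain. A lower S2P over N20 at the start than at the end is therefore given by the choice. In these genes N20 was at least as dense as S2P library 1 at the start, and S2P stood far above N20 at the end. UBE2N (chr12:93400039-93442479, GRCh38), the E2 enzyme that builds lysine 63 ubiquitin chains, had a start density of 14.6 and 29.8 in S2P, against 31.0 and 38.9 in N20, and over its last 5 kb it had 24.3 and 50.5 in S2P, against 1.73 and 2.89 in N20. The change was 4.69 on the log2 scale (SE 0.64, adjusted p 3.59e-11), or 25.7-fold. N20 at the end of UBE2N lay not far above background, so the size of this fold is uncertain. MAP2K2 (chr19:4085399-4124573), the kinase MEK2 of the ERK pathway, had 8.43 and 17.9 in S2P, against 40.0 and 37.7 in N20, at the start, and 62.3 and 96.9 in S2P, against 10.5 and 9.62 in N20, at the end (log2 4.61, SE 0.54, adjusted p 2.39e-14). SLC7A5 (chr16:87827292-87869448), the large neutral amino acid transporter subunit LAT1, reached 327 and 1601 in S2P over its last 5 kb, against 55.3 and 47.2 in N20. RPS19 (chr19:41859750-41875921), a ribosomal protein mutated in Diamond-Blackfan anaemia, reached 190 and 128 in S2P, against 9.81 and 12.59 in N20. The other genes among the 10 highest were MRPS18A, PTPN1, SND1, RRP7A, SESN2 and GP6-AS1, with log2 changes of 4.34 to 4.56. All 10 passed the test with any 1 library left out.

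In the 10 lowest units, picked for a fall of S2P over N20 from start to last 5 kb, both S2P libraries lay above both N20 libraries at the start. NDUFA2 (chr5:140632801-140647760), a subunit of respiratory complex I, had 152 and 261 in S2P at its start, against 24.9 and 20.2 in N20, and 4.15 and 2.86 in S2P over its last 5 kb, against 3.17 and 2.89 in N20 (log2 -2.94, SE 0.57, adjusted p 4.87e-06). TSPOAP1-AS1 (chr17:58328138-58356871), a long non-coding RNA, had 1992 and 2131 in S2P at the start, against 72.9 and 62.1 in N20, and its change was -2.62 (SE 0.47, adjusted p 6.25e-07). TAF9B (chrX:78121420-78139670), a paralogue of the TFIID subunit TAF9, had 90.0 and 230 in S2P at the start, against 30.3 and 30.9 in N20 (log2 -2.39, SE 0.63, adjusted p 0.000987). MRPL49, SUV39H1, WDR33, SARM1, ASPRV1, LOC101927377 and GXYLT1 completed the 10 lowest, with log2 changes of -2.85 to -2.08. Only NDUFA2 and TSPOAP1-AS1 of the 10 passed the test with every single library left out; the other 8 lost the call without N20 library 1 or 2, or both, and GXYLT1 also without either S2P library. The value of TAF9B ranged from -3.35 to -1.59 over these fits.

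**Figure D3:**
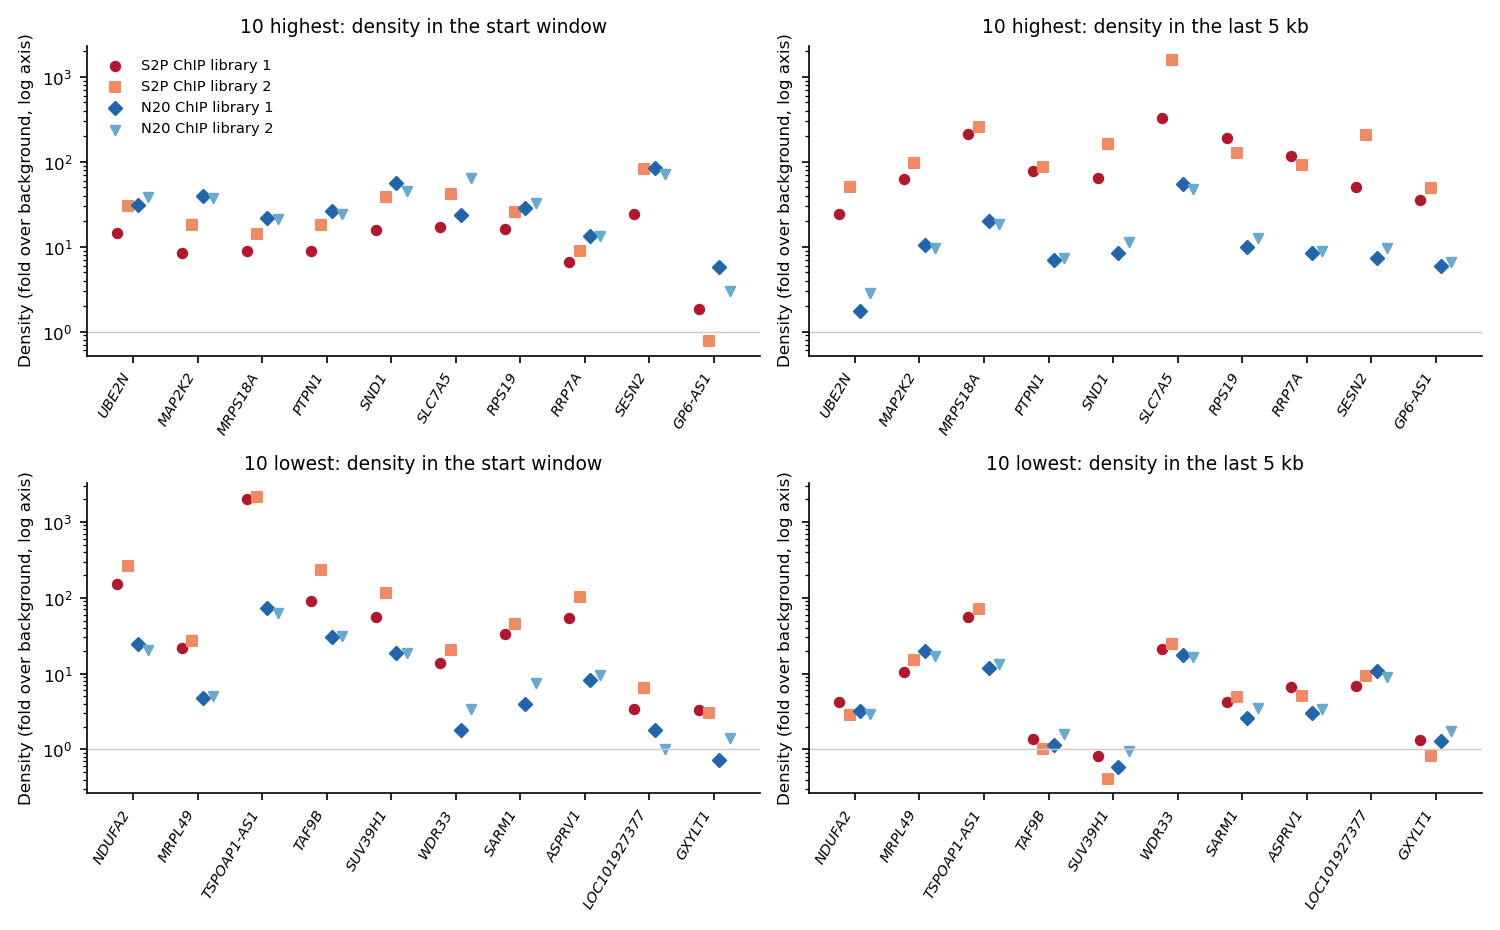
Density (fold over background, log axis) in the start window and over the last 5 kb, for the 10 units with a gene symbol and the highest and the 10 with the lowest change of S2P over N20 between these windows, with 1 marker per ChIP library. Among the highest, SLC7A5 reaches 327 and 1601 in S2P over its last 5 kb, against 55.3 and 47.2 in N20, and among the lowest, NDUFA2 has 152 and 261 in S2P at its start, against 24.9 and 20.2 in N20.

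Part of these start peaks lay beside the end of another gene. A unit's start was counted as near another end when it fell from 1 kb before to 3 kb after the 3' end of another RefSeq gene. This held for 4 of the 10 lowest units (NDUFA2, MRPL49, TSPOAP1-AS1 and ASPRV1) and for 0 of the 10 highest. Among all named units tested between start and last 5 kb, it held for 335 of 5622, or 5.96%. It held for 9 of the 55 called lower, or 16.4%, and for 138 of the 2425 called higher, or 5.69%. Among all named units tested at their starts, 462 of 6999, or 6.60%, lay near another end. Of the 179 named units whose start was higher in S2P, 51 did, or 28.5%, and of the 1257 whose start was lower in S2P, 56 did, or 4.46%. Without the units near another end, 128 of 6537 starts were higher and 1201 lower, and between start and last 5 kb 2287 of 5287 units were higher and 46 lower, with a median of 1.46. The part of neighbouring ends in the start values was otherwise not tested.

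The promoters of 2 genes from each end of this ranking, with the CpG dinucleotides in capitals, show the kind of sequence that lies at these starts. Each is the 150 bases before the RefSeq start in GRCh38.p14, 5' to 3' on the gene's strand, on the minus strand in all 4 genes: UBE2N at chr12:93441948-93442097 and MAP2K2 at chr19:4124123-4124272 from the highest, and NDUFA2 at chr5:140647631-140647780 and TAF9B at chrX:78139651-78139800 from the lowest.
UBE2N: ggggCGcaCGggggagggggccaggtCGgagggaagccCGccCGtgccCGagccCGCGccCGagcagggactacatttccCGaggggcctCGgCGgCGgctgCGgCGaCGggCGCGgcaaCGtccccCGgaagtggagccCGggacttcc
MAP2K2: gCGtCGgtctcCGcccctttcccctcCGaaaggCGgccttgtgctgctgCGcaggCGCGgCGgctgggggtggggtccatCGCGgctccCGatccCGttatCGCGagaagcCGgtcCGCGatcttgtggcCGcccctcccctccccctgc
NDUFA2: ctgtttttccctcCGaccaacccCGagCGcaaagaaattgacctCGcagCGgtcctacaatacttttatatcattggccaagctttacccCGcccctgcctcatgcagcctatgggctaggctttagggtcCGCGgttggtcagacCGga
TAF9B: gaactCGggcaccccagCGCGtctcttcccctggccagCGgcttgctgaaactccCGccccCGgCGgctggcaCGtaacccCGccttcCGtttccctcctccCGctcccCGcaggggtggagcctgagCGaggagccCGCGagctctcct
The UBE2N and MAP2K2 stretches hold 21 and 19 CpG, and those of NDUFA2 and TAF9B hold 9 and 15. With 4 sequences no relation can be read from this.

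Over the 4286 named mRNA units whose start lay within 1 kb of the RefSeq start, the density at the start went with the CpG count of the 250 bases before it, in both antibodies. In the quartile with 0 to 16 CpG the median start density was 10.1 and 17.6 in S2P, against 14.8 and 15.6 in N20. In the quartile with 30 to 59 CpG it was 16.0 and 33.7 in S2P, against 21.3 and 29.3 in N20. The relative level of S2P over N20 at starts followed the CpG count only weakly across units (Spearman rho 0.09, n = 4256, a description). The letters TATAAA, on either strand, occurred in 4.69% of these promoters and in 11.1% of all 27305 RefSeq promoters of the same length.

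Near the 3' end, both antibodies were densest just past the annotated end of genes, with S2P at the higher fold over background. Around the RefSeq 3' ends of 1809 mRNA units without a neighbour downstream, S2P peaked at 0.4 kb past the end, at 21.7 and 27.4. Both N20 libraries peaked in the same bin, at 4.01 and 3.83. S2P over N20 was 3.20 at 5 kb before the end, 6.25 at the peak, 4.05 at 2 kb after it, 2.38 at 5 kb and 1.84 at 10 kb. The bin at the end itself was lower than its neighbours in all 4 libraries, at 8.22 and 10.4 in S2P, against 1.62 and 1.67 in N20, and what lowers it was not tested. Most of this peak lay inside the deposited units, which reach a median of 4.22 kb past the RefSeq end (quartiles 1.82 and 8.59 kb) and end past it in 88.8% of 5386 named mRNA units. Seen from the ends of the units themselves, over 3526 mRNA units, S2P therefore peaked upstream of the end, at 12.04 and 15.3 from 3.2 to 2.6 kb before it, where N20 at 3 kb before the end stood at 3.07 and 2.97.

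**Figure D4:**
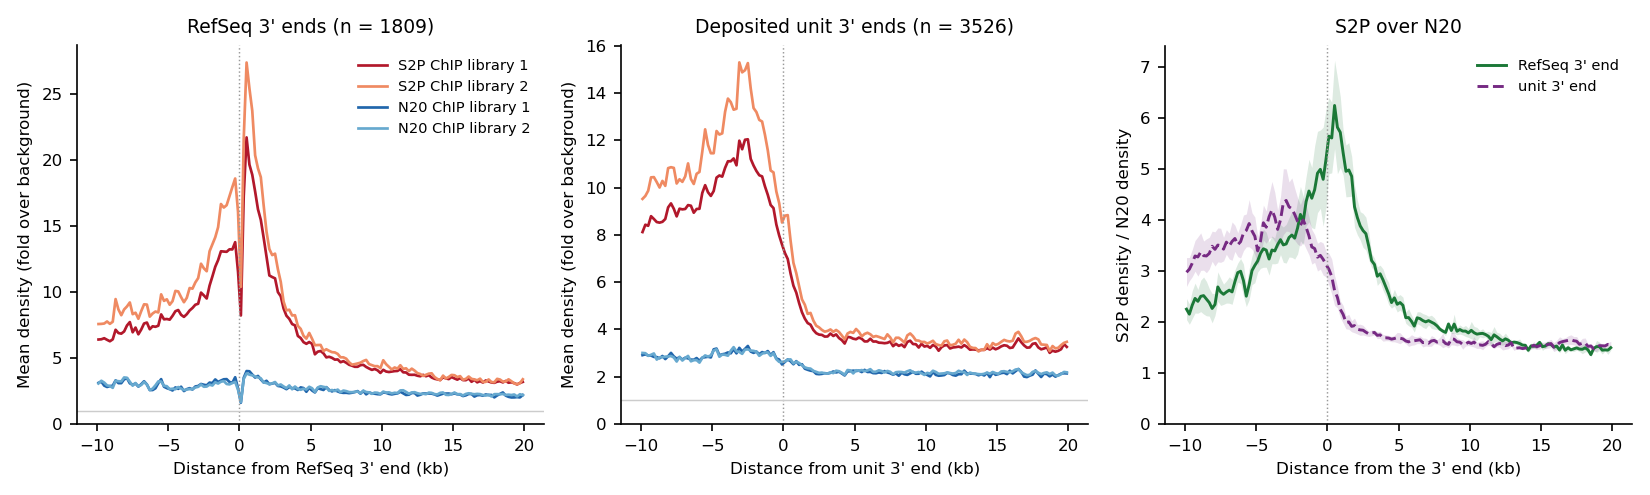
Mean density (fold over background, 200 bp bins) against distance in kb from the RefSeq 3' end and from the deposited unit's 3' end, with 1 line per ChIP library, and S2P density over N20 density around both ends, with the band from the lowest to the highest of the 4 pairs of libraries. S2P over N20 peaks at 6.25 at 0.4 kb past the RefSeq end and at 4.39 at 3 kb before the unit's end.

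The direction of the change in the first 5 kb after the end differed with the end used. From the ends of the units, S2P over N20 changed between the last 5 kb and the next 5 kb in 793 of 4432 units, or 17.9%, 48 higher and 745 lower, with a median log2 change of -0.46. In mRNA units 628 of 3054 were lower and 27 higher, and the density after the end was 0.632 and 0.602 of the last 5 kb in S2P, against 0.923 and 0.926 in N20. From RefSeq ends, 453 of 2280 units changed, or 19.9%; among mRNA units 278 of 2022 were higher and 127 lower, with a median of 0.24. Further out both ends gave a fall. At 5 to 10 kb after the unit's end 1234 of 4417 units changed, or 27.9%, 72 higher and 1162 lower, and at 10 to 20 kb 1611 of 4759 changed, or 33.9%, 95 higher and 1516 lower. From RefSeq ends 457 of 1970 mRNA units were lower and 98 higher at 5 to 10 kb, and 687 of 2084 were lower and 76 higher at 10 to 20 kb. Leaving out N20 library 1 or 2 reduced the calls from unit ends to 234 and 176 at 0 to 5 kb, 488 and 265 at 5 to 10 kb, and 1063 and 866 at 10 to 20 kb, and leaving out S2P library 2 gave 468 at 0 to 5 kb.

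Single genes traced the same course. GATA2 (chr3:128476746-128489009), a transcription factor of blood progenitors, had a last 5 kb density of 133 and 124 in S2P, against 12.1 and 10.4 in N20, and 5.06 and 4.90 in S2P, against 2.89 and 3.21 in N20, in the next 5 kb (log2 -2.82, SE 0.31, adjusted p 8.78e-05). Relative to its start the last window had gained 3.56 (SE 0.52, adjusted p 5.00e-10). KLF6 (chr10:3773583-3786515), a zinc finger transcription factor, had 24.7 and 93.5 in S2P over its last 5 kb, against 1.73 and 3.61 in N20, and 1.52 and 1.43 in S2P, against 0.722 and 1.04 in N20, after it (log2 -3.31, SE 0.60, adjusted p 0.00163). Both antibodies lay near background after the end of KLF6, so the size of its change is uncertain. STOML1, a stomatin-like membrane protein, had the lowest value among called units with a symbol, a mean of 20 counts and the same sign in all 4 pairs of libraries, -4.02 (SE 0.48, adjusted p 0.000182). SND1, a tudor domain protein whose unit spans 455.8 kb, had 64.1 and 164 in S2P over its last 5 kb, against 8.37 and 11.3 in N20, and 4.94 and 3.57 in S2P, against 4.18 and 2.97 in N20, after the end (log2 -3.05, SE 0.49, adjusted p 0.000858). Measured from the RefSeq end, the SND1 value was 0.50. Past the 3' end, NPM1, which encodes the nucleolar protein nucleophosmin, had 6.71 and 6.02 in S2P, against 1.299 and 0.802 in N20, a log2 change from its last 5 kb of 1.04 that did not pass the test (adjusted p 0.135). The 5 highest units in this contrast, CLIC4, LOC124906082, RDX, ZNF281 and ZNF557, all lost the call with 1 or more single libraries left out.

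Between body and last 5 kb, S2P over N20 changed in 2347 of 9941 units, or 23.6%, with 1562 higher and 785 lower and a median of 0.16. Without N20 library 1 or 2, 573 and 109 calls were left. MALAT1 (chr11:65492894-65509395), an abundant nuclear long non-coding RNA, had the highest value, 4.67 (SE 0.36, adjusted p 0.000341). The last 5 kb of its unit held 187 and 125 in S2P, against 10.1 and 11.3 in N20. The body window of the unit held 6.97 and 9.67 in S2P, against 14.4 and 14.8 in N20. S2P thus lay below N20 in the unit's body window and above it in its last window. RPL3 (chr22:39310564-39320874), a ribosomal protein of the large subunit, did the same, with 307 and 172 in S2P, against 24.2 and 22.7 in N20, over the last 5 kb (log2 4.06, SE 0.48, adjusted p 0.00139). TFRC (chr3:196034978-196082868), the transferrin receptor that brings iron into erythroid cells, went the opposite way. Its body held 19.9 and 16.1 in S2P, against 3.85 and 3.85 in N20. Its last 5 kb held 3.29 and 2.24 in S2P, against 3.03 and 2.00 in N20 (log2 -2.04, SE 0.32, adjusted p 0.00317). These windows follow the deposited units, whose start and end can differ from those of the gene named. Of 5386 named mRNA units 88.8% ended past the RefSeq end, and the median reach past it was 4.22 kb. With RefSeq ends KCNK5 and RABGGTB changed sign in this contrast. Where the RefSeq gene lies within the units of MALAT1, RPL3 and TFRC is not given here. RPL3 was the highest of the listed ribosomal protein genes, of which 5 of 30 were higher here and 6 lower. The median of that list was -0.54, against 0.28 over all mRNA units.

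Ribosomal protein genes had the highest median of the gene lists examined between start and body. Some of these units, RPL18 among them, are shorter than 10 kb, so their body window runs to the 3' end. Of the 7810 mRNA units 7157 are 10 kb or longer, and their body stops 5 kb before the end. The part of this unlike window was not tested. Over the last 5 kb the list did not rank highest, as hosts of small nucleolar RNAs had a median of 2.33. Of 78 listed genes 44 had a unit, and S2P over N20 was higher in the body in 36 of the 43 tested and lower in 0, with a median of 2.42, against 44.5% of all mRNA units called higher and a median of 1.25. RPL18 (chr19:48611746-48619369) had 14.1 and 28.1 in S2P, against 47.3 and 39.9 in N20, at the start, and 228 and 236 in S2P, against 25.6 and 23.0 in N20, in the body (log2 4.39, SE 0.54, adjusted p 1.89e-12). RPL26 had a log2 change of 4.36 (SE 0.58, adjusted p 8.53e-11) and RPS23 of 4.25 (SE 0.56, adjusted p 8.48e-11). Over the last 5 kb 18 of 29 ribosomal protein genes were higher than at the start and 0 lower, with a median of 1.94, against 45.3% of all mRNA units and a median of 1.52. Without N20 library 1 or 2, 11 of 44 and 13 of 43 were higher in the body, with medians of 2.32 and 2.59, and 7 of 30 and 5 of 29 over the last 5 kb. These genes have many processed pseudogenes, and the sources used here do not state how reads with several matches were placed, so their values are uncertain.

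Genes of the polymerase tail's own cycle, its kinases, phosphatases, elongation and 3' end factors, were examined as a second list, of which 44 of 62 had a unit. S2P over N20 was higher in the body than at the start in 22 of 43 and lower in 0 (median 1.39), near the 44.5% of all mRNA units that were higher. Over the last 5 kb it was higher in 26 of 41 and lower in 1 (median 2.03), against 45.3% higher over all mRNA units. The body median was 0.89 without S2P library 1, and 1 and 3 of 43 were higher in the body without N20 library 1 or 2. Without N20 library 1 or 2, 9 and 7 of 42 were higher over the last 5 kb and 0 lower, with medians of 2.16 and 1.99. Of the cleavage and polyadenylation factors, CPSF4 (log2 3.81, SE 0.51, adjusted p 1.02e-11) had 217 and 162 in S2P over its last 5 kb, against 18.6 and 16.5 in N20. NUDT21, which binds upstream of poly(A) sites, had a value of 3.20 (SE 0.60, adjusted p 1.71e-06). Among pausing factors, the NELF subunit genes NELFCD and NELFA had 3.57 (SE 0.61, adjusted p 1.81e-07) and 3.36 (SE 0.52, adjusted p 4.61e-09). Among the phosphatases, SSU72 had 2.25 (SE 0.50, adjusted p 6.90e-05) and CTDSP1 2.87 (SE 0.49, adjusted p 1.78e-07). POLR2A, the gene of the subunit both antibodies bind, had 8.74 and 15.6 in S2P, against 10.1 and 9.22 in N20, at the start and 8.14 and 6.22 in S2P, against 3.90 and 3.13 in N20, over its last 5 kb (log2 0.77, SE 0.74, adjusted p 0.421). CDK12, a serine 2 kinase, had 1.14 (SE 0.68, adjusted p 0.169). The single lower member was WDR33, the factor that reads the AAUAAA signal, at -2.301 (SE 0.69, adjusted p 0.00402), a call lost without N20 library 1 or 2.

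Few erythroid genes and markers of the line had a unit. Of 40 listed erythroid and haem genes 18 had a unit, and 8 of 13 were higher in S2P over N20 over their last 5 kb than at the start and 0 lower, with a median of 1.94, against 45.3% higher and a median of 1.52 over all mRNA units. Without N20 library 1 or 2, 3 and 2 were higher, and without S2P library 2, 14 of 15. From body to last 5 kb 4 of 16 erythroid genes were higher and 2 lower, with a median of -0.10, against 0.28 over all mRNA units. ZFPM1, the GATA1 cofactor FOG1, had 163 and 224 in S2P over its last 5 kb, against 20.1 and 20.4 in N20 (log2 3.11, SE 0.50, adjusted p 3.06e-08), and EPB41, the red cell membrane protein 4.1R, had 90.5 and 218 in S2P, against 19.1 and 20.2 in N20 (log2 3.302, SE 0.51, adjusted p 4.25e-09). Of the 10 markers of the line only TAL1, a transcription factor of blood stem cells, carried a unit that could be named, and that unit is in the eRNA class. Its value was 1.34 between start and body (SE 0.55, adjusted p 0.0394), a call lost without S2P library 1 or either N20 library. It was 0.64 between start and last 5 kb (adjusted p 0.519; -0.16 without S2P library 1) and -0.69 between body and last 5 kb (adjusted p 0.168). Of 12 markers of other cell types 1, CD3D, had a unit, with a body density of 4.91 and 4.16 in S2P, against 1.47 and 1.78 in N20. BCR, whose fusion to ABL1 defines this leukaemia, had a body density of 65.1 and 70.6 in S2P, against 26.4 and 27.3 in N20, and NUP214 had 36.9 and 36.5 in S2P, against 19.1 and 19.9 in N20. With no input library, copy number and polymerase density cannot be told apart in such levels.

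Other lists are given for the last 5 kb against the start, where 45.3% of all mRNA units were higher, with a median of 1.52. Chaperone genes were higher in 10 of 16 and lower in 0 (median 1.88), hosts of small nucleolar RNAs in 8 of 9 and 0 (median 2.33), mitotic genes in 10 of 16 and 0 (median 1.87), and genes of oxidative phosphorylation in 7 of 15 with NDUFA2 as the 1 that was lower (median 1.58). Immediate early genes, which fire within minutes of a stimulus, were higher in 5 of 11 and lower in 0 (median 1.39), so these and the oxidative phosphorylation genes lay near the share of all mRNA units. In the body 6 of 20 immediate early genes were higher, below the 44.5% of all mRNA units, and 0 and 1 without N20 library 1 or 2, and 10 without S2P library 2. Zinc finger genes had a lower median, 0.63, with 46 of 223 higher and 4 lower. Only 7 of 62 replication-dependent histone genes had a unit that could be named; H2AC8 had 141 and 47.4 in S2P at its start, against 5.05 and 6.81 in N20, and 24.8 and 14.9 in S2P, against 12.4 and 13.4 in N20, in the rest of its unit. Of 23 listed small nuclear RNA genes 0 matched a unit. Histone genes are near-identical copies, so their values are uncertain. Without N20 library 1 or 2 the higher calls over the last 5 kb fell to 2 and 4 for chaperones, 1 and 2 for small nucleolar RNA hosts, 1 and 1 for mitotic genes, 1 and 1 for oxidative phosphorylation, 2 and 1 for immediate early genes, and 10 and 6 for zinc finger genes. Without S2P library 1 they were 4 for mitotic genes, 4 for oxidative phosphorylation, 5 for small nucleolar RNA hosts and 32 for zinc finger genes, whose median was then 0.27. Without S2P library 2 they were 11 for oxidative phosphorylation and 88 for zinc finger genes, whose median was then 1.03. KIF2C, a mitotic kinesin, kept its call with any 1 library left out (log2 3.38, SE 0.63, adjusted p 1.86e-06), while HSPA4, an HSP110 chaperone, lost it without N20 library 1 or 2 (log2 3.25, SE 0.73, adjusted p 8.06e-05). EEF2, the translation elongation factor, an isolated unit, had 261 and 304 in S2P over its last 5 kb, against 35.6 and 31.6 in N20, and kept its call (log2 4.01, SE 0.49, adjusted p 2.63e-13).

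The gain of S2P over N20 along mRNA units varied little with unit length and more with TT-Seq density. TT-Seq columns were identified only from the deposited description of columns, and body density of the polymerase had almost no rank correlation with TT-Seq density, so the ranking is given as TT-Seq density and not read as synthesis. In quartiles by length, from 10.0 to 894 kb, the median log2 change between start and last 5 kb was 1.66, 1.58, 1.46 and 1.37 from the shortest to the longest, and the share called higher was 51.7%, 47.3%, 42.6% and 39.6%. In quartiles by TT-Seq density it was 1.03, 1.60, 1.66 and 1.80 from the lowest to the highest, and the share called higher was 30.3%, 47.4%, 49.3% and 54.2%. Across the quartiles by TT-Seq the ratio of last 5 kb to start moved by little in S2P, at -0.76 and -1.50 in the lowest quartile and -0.81 and -1.87 in the highest. In N20 it was -2.05 and -2.25 in the lowest quartile and -3.09 and -3.20 in the highest. Across 6641 units, the change had a Spearman rho of -0.09 with length and 0.23 with TT-Seq density, as a description.

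**Figure D5:**
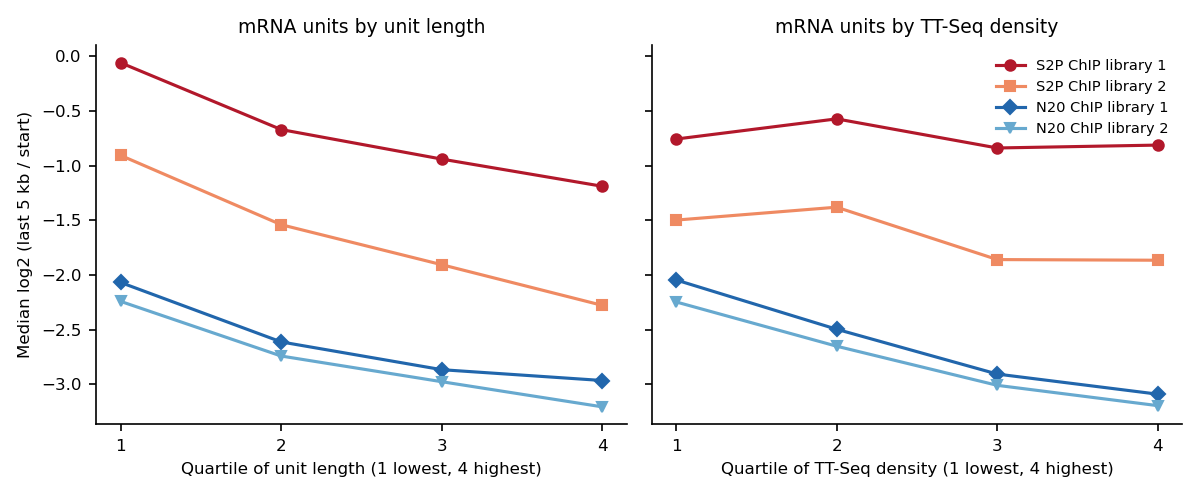
Median log2 ratio of density over the last 5 kb to density at the start, for mRNA units in quartiles of unit length and of TT-Seq density, with 1 line per ChIP library. Both S2P lines lie above both N20 lines in every quartile, and the N20 lines stand at -2.05 and -2.25 in the lowest quartile of TT-Seq density and at -3.09 and -3.20 in the highest.

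The level of either antibody in the body did not follow TT-Seq. Over 7763 mRNA units the Spearman rho between body density and TT-Seq density was -0.001 and 0.015 in S2P, against -0.079 and -0.065 in N20, although body densities agreed between libraries (0.98 within S2P, 0.98 within N20, and 0.95 for each pair of an S2P and an N20 library). At starts the rho with TT-Seq was 0.067 and 0.115 in S2P, against 0.275 and 0.245 in N20. At starts the 2 antibodies were also less alike, with a rho of 0.66 to 0.84 between them, 0.92 within S2P and 0.89 within N20. Background itself differed between chromosomes, from 0.527 and 0.520 of the genome's level in S2P, against 0.632 and 0.629 in N20, on chromosome X to 2.46 and 2.46 in S2P, against 1.84 and 1.86 in N20, on chromosome 22. Its part in the body levels was not tested.

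Windows compared directly between antibodies depend on how libraries are scaled. With trimmed mean scaling, S2P was lower than N20 at starts in 2928 of 20406 windows and higher in 1002 (19.3% called). With library totals the split was 6609 lower and 632 higher, and with background bins 225 lower and 1793 higher, so the direction at starts is relative. The median log2 of S2P over N20 over all windows was -0.015 with trimmed mean scaling, -0.36 with library totals and 0.46 with background bins. In bodies 4970 windows were higher and 306 lower (36.2% called), and in the last 5 kb 3762 were higher and 184 lower (39.6% called). After the unit's end 362 were higher and 343 lower at 0 to 5 kb (7.84% called), 134 and 434 at 5 to 10 kb (6.31% called), and 131 and 671 at 10 to 20 kb (8.2% called). Over whole units 4462 were higher and 3757 lower (41.2% called). The balance of the other windows moved with scaling too. With library totals 3592 bodies were higher and 1007 lower, with background bins 7319 and 69. In the first 5 kb after the end, 156 were higher and 724 lower with library totals, and 1164 and 125 with background bins. Over whole units background bins gave 8498 higher and 209 lower. Starts far above N20 included PRR7, a proline-rich adaptor gene, with 447.5 and 1032 in S2P, against 30.7 and 45.7 in N20, and VPS9D1, with 1288 and 2621 in S2P, against 102.5 and 167 in N20. Bodies far above N20 included LYL1, a helix-loop-helix factor gene whose unit is in the eRNA class, with 379 and 799 in S2P, against 47.1 and 50.6 in N20. UIMC1, a partner of BRCA1 in DNA repair, was higher in the 5 kb after its unit's end, with 12.2 and 18.98 in S2P, against 1.59 and 1.76 in N20. Without single libraries the number called at starts ranged from 893, without N20 library 1, and 1303, without N20 library 2, to 5975 and 11916 without S2P library 1 and 2; without N20 library 1 or 2 it was 3250 and 2937 in bodies, 2042 and 1865 in the last 5 kb, and 4807 and 4885 over whole units. After the end it was 210 and 168 at 0 to 5 kb, 188 and 158 at 5 to 10 kb, and 282 and 256 at 10 to 20 kb without N20 library 1 or 2, and 1570, 1318 and 2168 at these distances without S2P library 1.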

How the data were processed

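The deposited values used are whole counts of fragments in 200 bp bins of GRCh38, without strand for ChIP, and a deposited annotation of units with their class, per the file headers and the deposited description of columns. Of the tools named, Bowtie2 2.1.0 and SAMtools stand beside STAR 2.3.0, per the submitters' processing notes; their roles and the rule for reads with several matches are not stated there. TT-Seq counts served for ranking, and another 12 columns of counts were not used. Counts were summed per window by bin centre. Units of 3 to 10 kb have a body that runs to their 3' end but no last 5 kb. The 2 units on chromosomes M and Y were left out. Units took RefSeq symbols on their strand at a Jaccard overlap of 0.5, or 0.8 coverage and a start within 3 kb.

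Windows were tested with edgeR 4.0.16 (R 4.3.3, filterByExpr, TMM, glmQLFit robust), S2P against N20. Changes within units were tested with 2 columns per library and library in the model, which needs no scaling. Common dispersion was 0.0609 for windows, 0.0337 for whole units and 0.0268 to 0.0893 for the changes within units. Each SE is the log2 change, without its sign, over the square root of the F statistic. The test recovered changes set in simulated data. The simulated libraries of an antibody did not differ at starts as the S2P libraries do here, so the simulation cannot tell how many of the real calls are false. The members and gene lists were chosen with earlier results of these data known. The named genes are, among called units with a symbol, a mean of 20 counts and the same sign in all 4 library pairs, the 10 or 5 highest and lowest per contrast, and members of the lists. Alternatives were other scalings, DESeq2 1.42.0, filters, other windows and ends, a replicate block and each library left out; halved counts were added after seeing the data. Profiles cap each unit at the 99.9 percentile. Depth and background are in the report.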

Additional observations from a re-analysis of the deposited data

How the results depend on the processing

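Counts of windows or units past the threshold moved by over 1.5 times, or their balance of higher and lower turned, as follows, in the order starts, bodies, last 5 kb, 0 to 5, 5 to 10 and 10 to 20 kb after the end where a setting touched them. Library totals gave 7241 starts, then 880, 996 and 1833 after the end. Background bins gave 2018 starts, then 1289, 708 and 592. DESeq2 size factors gave 556 at 0 to 5 kb. A density over 2-fold background gave 7824 starts, then 329, 136 and 124. RefSeq ends gave 2263 bodies, 2302 last windows, then 1261, 505 and 393. All units, with or without a neighbour downstream, gave 2906, 2830 and 3784. Isolated units gave 181 starts, 535 bodies, 368 last windows, 150, 120 and 169 after the end, and 820 whole units. The balance turned at starts (background bins), at 0 to 5 kb (library totals, DESeq2 size factors), and further out (background bins, 2-fold background, all units, and RefSeq ends at 5 to 10 kb).

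Within units, isolated units gave 278 (body over start), 256 (last 5 kb over start), 297 (last 5 kb over body), 89, 151 and 275 (after the end over last 5 kb). RefSeq ends gave 2129, 2110, 1385, then 453 with the direction turned, 613 and 838. All units gave 2172, 2790 and 3511 after the end.

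With single libraries left out, calls ranged from 893 to 11916 (starts), 2937 to 7626 (bodies), 1865 to 4953 (last 5 kb), 168 to 1570, 158 to 1318 and 256 to 2168 (after the end) and 4807 to 11514 (whole units). The balance turned at starts without N20 library 1 (476 higher, 417 lower), and at 0 to 5 kb without S2P library 1 (763, 807), N20 library 1 (89, 121) and N20 library 2 (69, 99). Within units they ranged from 240 to 9124 (body over start), 847 to 5721 and 109 to 3227 (last 5 kb over start and over body), and 176 to 648, 265 to 1224 and 866 to 1641 after the end.

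After subtraction of background the mRNA difference after the end was -0.80. The log2 of S2P over N20, taken from the median mRNA density of each library less background, was 1.63 in bodies, 1.89 in the last 5 kb and 1.01 after the end. These are ratios of medians and not medians of ratios over units. With RefSeq ends 10 named values changed sign: CTDSP1 0.79, RDX -0.094, SND1 0.50, TKT 0.71 and ZNF557 -0.47 (after the end over last 5 kb), KCNK5 1.49 and RABGGTB 2.65 (last 5 kb over body), SUV39H1 0.41 (last 5 kb over start), TMEM19 0.61 and USP46-DT 0.88 (S2P over N20 after the end). Of 914 alternatives for 80 named results, 831 kept direction and call and 73 lost the call. The cause was not tested for any of these.

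Same-numbered libraries did not deviate together (correlation -0.063 over 13451 windows). With 2 libraries per antibody this rests on a single difference for each antibody, so it cannot tell whether the numbers pair them. With the replicate number as a block, 5823 starts, 5257 bodies, 4195 last windows, 862, 691 and 1076 windows after the end and 8553 whole units were called, and within units 5171, 3898, 1918, 770, 1237 and 1541. Halved counts, chosen after seeing the data, kept every count within 1.5 times.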
